A study of Gallus gallus with 6 samples.

Results

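The uninjured chorioallantoic membrane (CAM) of the chick embryo is described here from the 3 control arrays of a series of 6. The control arrays were chosen by their labels, as CAM with no wound injury, and are called control 1, control 2 and control 3. The other 3 arrays are of wound tissue and were used only to look at W-linked genes. Brown Leghorn eggs were opened into Petri dishes and cultured without a shell. After 10 days of culture in all, superficial scalpel cuts were made in the CAM and its epithelium was scraped off there, and the tissue was taken 6 days later. Control tissue came from an area of the same 3 eggs that had not been cut, so each control membrane also carried wounds elsewhere and no egg without wounds was profiled. RNA of each sample was hybridised to 1 Affymetrix chicken GeneChip. Both groups share the strain and the shell-less culture, and the labels do not give the sex of the embryos.

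The CAM forms when the outgrowing allantois fuses with the chorion. It lies under the shell and serves as the embryo's lung, takes up calcium from the shell, and stores waste in the allantoic sac. It holds a chorionic epithelium, a mesenchyme with a dense capillary bed, and an allantoic epithelium. Blood in its vessels carries nucleated red cells, so red cell transcripts are part of what a piece of CAM gives.

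Each value is a log2 intensity of a probe set, a group of short oligonucleotides designed to read a transcript or, for some sets, several related ones, and 1 log2 unit is a 2-fold difference in intensity. Of 38535 probe sets, 96 array controls were left out. Of the other 38439, 27168 had 1 gene symbol and stood for 13009 genes, each read by the probe set of the highest mean over the 3 arrays. Brightness also depends on how well the probes of a set bind, so the order of genes by brightness is not their order by mRNA abundance, and bands are used as a coarse description. A mean of 10 or more was called high and a mean from 6 up to 10 middle. A mean at or below 3.05, the median of all probe sets, was called floor. The high band held 398 genes or 3.06%, the middle band 3945 or 30.3%, the low band between middle and floor 4974 or 38.2%, and the floor 3692 or 28.4%. Counts of gene list members by band are to be read beside these shares of all genes. The limits cut through a continuous distribution, with 57 genes within 0.1 of the high limit and 297 within 0.1 of the middle limit. Just inside the high band stood KARS at 10.001 and NUCKS1 at 10.02, and just outside it ARPC4 at 9.99996 and EMP1 at 9.995. MAP4 at 6.0006 and MIOS at 5.9998 lay on either side of the middle limit, and MARCH11 at 3.0462 and SYCN at 3.0462 on either side of the floor limit.

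**Figure D1:**
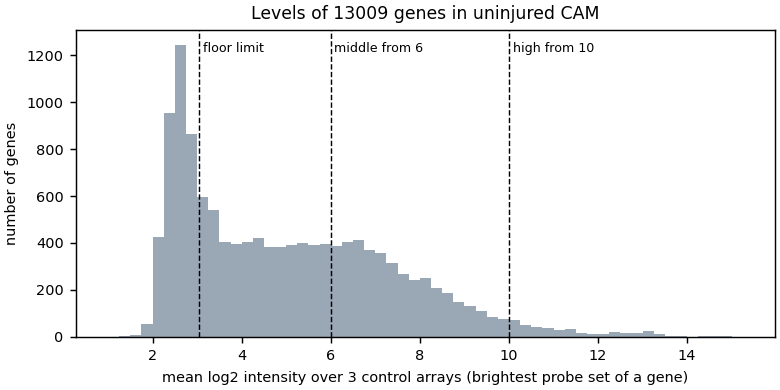
Number of genes (vertical axis) by mean log2 intensity over the 3 control arrays (horizontal axis), with dashed lines at the limits of the bands. The tallest bars lie at or below the floor limit of 3.05, and the 398 genes of the high band form the thin right tail.

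The floor was set against probe sets that should read no named chicken gene. Among 541 probe sets named after genome records, without a gene symbol, the median was 2.59 and the highest 4.09, and 443 of them lay at the floor. Among 57 probe sets for reporter sequences the median was 2.40 and the highest 3.79. A level under 4 therefore overlapped the range of these probe sets. The spread between arrays also differed by band, with a median SD over 3 arrays of 0.018 at the floor, 0.15 in the low band, 0.15 in the middle band and 0.11 in the high band.

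The 3 arrays were alike over most genes. Their medians over all probe sets lay from 3.03 to 3.05, and the actin 3' probe set exceeded its 5' probe set by 1.13, 1.09 and 1.02 log2 units in controls 1, 2 and 3. Pearson's r over the 13009 genes, which are not independent replicates and share probe effects, was 0.986 for controls 1 and 2, 0.989 for controls 1 and 3, and 0.988 for controls 2 and 3. Control 2 stood apart in genes of the sex chromosomes, and control 1 in keratin and skin lipid genes, as given below. Counts that leave each array out are given for all genes with a range of 2 or more, not for these groups. All results are descriptions of 1 group, with no test between groups.

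Among genes read by a probe set with 1 symbol, alpha globins and the matrix protein MGP were the brightest. A probe set with several symbols was brighter and is not named. HBA1 (alpha-A globin) read 14.75, 14.89 and 14.84 in controls 1, 2 and 3, a mean of 14.83 ± 0.071 (SD, n = 3). HBAD, the alpha-D globin of the same cluster, read 14.65, 14.85 and 14.69. The arrays lay within 0.2 of each other for both genes. Of 21 red cell genes measured, 7 or 33.3% were high and 11 or 52.4% in the middle band, and none at the floor. The shares of all genes were 3.06%, 30.3% and 28.4%. BPGM, which makes the bisphosphoglycerate that tunes oxygen binding, had a mean of 11.19 ± 0.10 (SD, n = 3). SLC4A1, the red cell anion exchanger, stood at 10.90, ANK1, which anchors the membrane skeleton, at 10.22, and RHAG, a Rhesus-associated channel, at 9.93. HBE, annotated as an epsilon globin, stood at 9.85. Of the 21 genes 3 had a range of 2 or more, namely HBZ and, with values given below, CA2 and HEMGN. HBZ, an embryonic alpha-type globin, read 4.81, 6.96 and 5.15, with control 2 the highest. Fewer red cells and less RNA per cell cannot be told apart in tissue samples of this kind.

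Translation filled most of the top of the list. Of the 25 brightest genes 15 had a symbol beginning RPL or RPS, and 57 of the brightest 100. Of 60 ribosomal protein genes measured, 58 were high, against 3.06% of all genes, with a median of 12.97. RPS20 read 13.93 in all 3 arrays and RPL35 had a mean of 13.80 ± 0.034 (SD, n = 3). The exceptions were RPL31 at 5.99 and RPS13 at 2.80, at the floor in all 5 of its probe sets. RPS13 is a part of every ribosome, so a floor level is not read here as absence of a transcript. Among 26 translation factors 16 were high and 10 in the middle band, led by EEF1A1, which brings transfer RNA to the ribosome, at 13.67. Of 49 genes of the respiratory chain and ATP synthase 20 were high and 23 middle, among them COX4I1, a subunit of cytochrome c oxidase, at 12.06. GAPDH and ENO1, enzymes of glycolysis, stood at 12.13 and 11.87, and the muscle form PFKM at 2.61. Of 25 proteasome genes 2 were high and 21 middle. Of 16 genes often used as references 9 were high and 7 middle, from EEF1A1 down to TBP at 6.04. Beside the counts of each of these lists, the shares of all genes were 3.06% high and 30.3% middle.

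Several genes of connective tissue were also among the bright genes. Matrix Gla protein (MGP), an inhibitor of calcification, read 14.23, 14.28 and 14.34. COL1A1 and COL3A1, chains of fibrillar collagens, had means of 13.24 ± 0.027 and 13.16 ± 0.053 (SD, n = 3 each), and COL1A2 a mean of 12.33. The fibroblast list had 14 of 49 measured genes or 28.6% in the high band and 20 or 40.8% in the middle, with a median of 7.71. The shares of all genes were 3.06% and 30.3%. SPARC, a collagen-binding glycoprotein, stood at 12.95, FN1 (fibronectin) at 12.76, DCN (decorin) at 12.50 and MMP2, a gelatinase, at 11.47. Other matrix genes read low or at the floor, such as ELN (elastin) at 4.95, TNC (tenascin C) at 3.07 and FMOD (fibromodulin) at 2.81. The fibroblast genes with the widest spread were OGN (osteoglycin) at 7.55, 8.77 and 9.45, and TIMP2, a metalloproteinase inhibitor, at 9.53, 9.29 and 7.93. Among 29 basement membrane genes 5 or 17.2% were high, against 3.06% of all genes. They were COL4A2 at 11.26, NID1 at 11.26, LAMB1 at 11.15, LAMC1 at 10.99 and COL18A1 at 10.56. The collagen IV chains COL4A3 to COL4A6 lay between 2.46 and 5.27, with COL4A3 at 3.57, COL4A4 at 2.46, COL4A5 at 5.27 and COL4A6 at 3.49.

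Epithelial genes of the high band included keratins, junction proteins and uroplakins. KRT7 had a mean of 11.98, KRT24 of 11.71, KRT14 of 11.37 and KRT13 of 10.26. EPCAM, an epithelial adhesion molecule, read 12.30, CLDN1, a tight junction protein, 11.50, and CDH1 (E-cadherin) 10.61. Of 37 genes of epithelial junctions and surface 4 were high and 17 middle, or 10.8% and 45.9%, against 3.06% and 30.3% of all genes. CLDN2 and CLDN18 were at the floor, at 2.56 and 2.66. TP63, a regulator of stratified epithelia, was low at 3.81. All 3 uroplakin genes measured were high. In mammals uroplakins build the plaques of the bladder surface. UPK1B stood at 11.60 and UPK3BL at 10.17, while UPK3A read 11.65, 10.58 and 11.45, with control 2 the lowest. The uroplakin list was added after its values were seen.

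In the egg the chorionic epithelium transports ions and acid in taking up shell calcium, but these embryos were cultured without a shell. Of 46 genes of calcium and acid transport measured 5 or 10.9% were high, 18 or 39.1% middle and 9 or 19.6% at the floor. Their median was 6.11. The shares of all genes were 3.06%, 30.3% and 28.4%. CA2, a carbonic anhydrase of red cells and acid-secreting cells, read 12.40, 12.33 and 9.47, so that control 3 lay about 2.9 units below the others. This range of 2.93 was the largest in the high band and the only range of 2 or more there. SLC4A1, of red cells and acid-handling epithelium, read 10.86, 11.38 and 10.46, a smaller range of 0.91. Subunits of the vacuolar proton pump were spread over the bands, with ATP6V0C at 10.78, ATP6V1E1 at 9.22, ATP6V1C2 at 8.38 and ATP6V1A at 7.66. RHCG, an ammonia channel, stood at 7.82 and FOXI1, a regulator of proton-secreting cells in mammals, at 6.29. ATP1B1, a subunit of the sodium pump, stood at 10.10, and SCNN1B and SCNN1G of the epithelial sodium channel at 8.07 and 6.49. Among calcium carriers, ATP2B1 and ATP2B4, plasma membrane calcium pumps, stood at 6.52 and 8.01, TRPV6, an entry channel, at 5.56, and CALB1 (calbindin) at 3.26.

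Several antimicrobial and granule genes were bright in this uncut tissue and others were at the floor, while general leucocyte markers were mid to low. The heterophil is the bird's counterpart of the neutrophil. Of 26 heterophil genes listed 12 were measured, and 6 or 50% of these were high, against 3.06% of all genes. LECT2, a leucocyte chemotaxin, stood at 12.48, CATH1 (a cathelicidin) at 12.38 and EXFABP, a siderophore-binding lipocalin, at 12.06. AvBD1 (a beta-defensin) stood at 11.68, LYG2, a goose-type lysozyme, at 10.99 and S100A12 at 10.82. MMP9 and CSF3R, also made by granulocytes, stood at 5.37 and 3.77, and CATHB1 was at the floor at 2.42. Among 13 annotated beta-defensins, a list added after its values were seen, DEFB4A at 12.11, AvBD1 and AvBD7 at 11.51 were high. At the floor were 6 or 46.2%, against 28.4% of all genes, and the list's median was 3.40. Which cells made these transcripts was not tested.

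Lists of other blood cells had lower medians than the red cell and heterophil lists, whose medians were 9.55 and 9.76. Of 26 myeloid and macrophage genes none was high, 9 or 34.6% were middle, 15 or 57.7% low and 2 or 7.69% at the floor. The shares of all genes were 3.06% high, 30.3% middle, 38.2% low and 28.4% at the floor. The median of the 26 was 5.47. LY86, a partner of a Toll-like receptor homologue, stood at 9.14, CSF1R, the macrophage growth factor receptor, at 7.39, and PTPRC, the CD45 antigen of all leucocytes, at 5.43. Control 1 was the highest array in 17 of the 26 and control 2 in 1, where over all genes the shares were 25.4% and 48.2%. Among genes of mean 6 or more outside Z and W these shares were 27.7% and 36.7%. LYZ (lysozyme) read 9.26, 8.12 and 8.75, and ITGB2, the integrin chain of leucocytes, 5.95, 4.91 and 5.64. Of 26 lymphocyte genes 16 were at the floor, against 28.4% of all genes, including CD3E at 2.79, CD4 at 2.79, RAG1 at 2.23 and CD79B at 2.48. The lymphocyte gene in the middle band was EBF1 at 7.09, which is also used by stromal cells, and CD3D read 5.37. Among clotting and thrombocyte genes ITGB3, an integrin of the thrombocyte, stood at 6.72.

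Vascular genes lay mostly in the middle band. Of 37 endothelial genes measured 4 were high and 23 middle, or 10.8% and 62.2%, against 3.06% and 30.3% of all genes. Their median was 6.96. AQP1, a water channel, stood at 10.93, CDH5 (VE-cadherin) at 10.59, PECAM1 at 10.32 and VWF (von Willebrand factor) at 10.03. The angiopoietin receptor TEK stood at 8.25, and the vascular endothelial growth factor receptors FLT4, KDR and FLT1 at 7.73, 5.04 and 4.40. ROBO4 and MMRN2 were at the floor, at 2.22 and 2.35. Control 3 was the highest array in 19 of the 37, against 26.4% of all genes. Among genes of mean 6 or more outside Z and W this share was 35.6%. The 3 members with a range of 1 or more were PROX1, a regulator of lymphatic endothelium, at 5.73, 6.21 and 7.16, MMRN1 at 6.24, 6.16 and 7.46, and STAB1, also made by macrophages, at 6.01, 6.09 and 7.01.

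Genes of contractile cells were split between bright and dim. Of 29 smooth muscle and pericyte genes 7 or 24.1% were high and 3 or 10.3% at the floor, against 3.06% and 28.4% of all genes. Among the 7 were TPM1 (tropomyosin) at 11.48, CALD1 (caldesmon) at 11.42 and MYLK, the myosin light chain kinase, at 10.36. ACTG2, the enteric smooth muscle actin, read 11.15, 10.59 and 9.45. ACTA2, the vascular smooth muscle actin, was low in its only probe set, at 3.52, 3.05 and 3.50. PDGFRB, a receptor of pericytes and mesenchyme, read 7.34, 6.29 and 7.40, with control 2 the lowest.

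**Figure D2:**
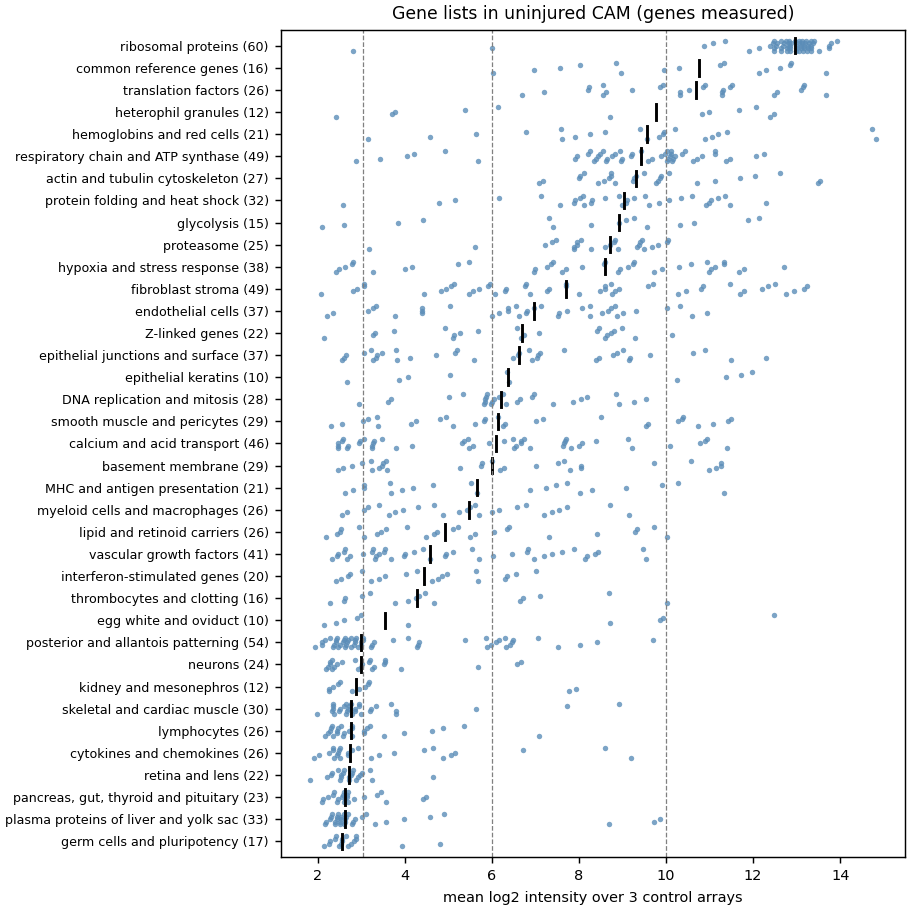
Mean log2 intensity over the 3 control arrays (horizontal axis) of each member of 37 gene lists with at least 10 genes measured, 1 point per gene, with the list's median as a black bar and the number of genes measured in parentheses. Dashed lines mark 3.05, 6 and 10, and the lists run from ribosomal proteins with a median of 12.97 down to germ cell genes with a median of 2.57.

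Of 41 growth factors and ligands of vessels measured none was high, where 3.06% of all genes were. In the middle band were 15 or 36.6%, in the low band 19 or 46.3% and at the floor 7 or 17.1%. The shares of all genes were 30.3%, 38.2% and 28.4%. CCN2, a matrix-associated factor, stood at 9.55, PDGFD at 9.47, MDK (midkine) at 8.43, BMP2 at 8.19, VEGFD at 7.39 and VEGFC at 6.97. VEGFA, the main growth factor of vessels, read 3.30, 3.37 and 3.15 in its only probe set, within the range of the genome record probe sets. Of 28 genes of DNA replication and mitosis 17 or 60.7% were middle, against 30.3% of all genes, and none high. PCNA, the polymerase clamp, stood at 9.27, CDK1 at 8.05 and MKI67 at 6.92. Control 2 was the highest array in 22 of these 28, against 48.2% of all genes. The share was 36.7% among genes of mean 6 or more outside Z and W. In the list of hypoxia and stress genes, 11 of 38 or 28.9% were high, against 3.06% of all genes. At the floor were 5 or 13.2%, against 28.4%. TXN (thioredoxin) led the list at 12.71, EPAS1, the hypoxia factor of endothelium, stood at 11.32, and FOS was at the floor at 2.43.

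Patterning genes left a sparse set of transcription factors above the floor. Of 54 measured, 12 or 22.2% were middle and 30 or 55.6% at the floor, against 30.3% and 28.4% of all genes. TCF21, a factor of mesenchyme, stood at 9.71, MSX2 at 8.41, GATA5 at 8.03, GATA6 at 7.52 and PITX1, a hindlimb factor, at 7.05. In the HOXA cluster HOXA7 at 6.30, HOXA9 at 6.49, HOXA11 at 6.47 and HOXA13 at 6.33 were middle, while HOXA2 at 2.59, HOXA5 at 3.01 and HOXA10 at 2.94 were at the floor. TBX4, a gene of the allantois and hindlimb, stood at 5.39, and its forelimb relative TBX5 at 2.76. HAND1 and CDX1 were at the floor, at 2.63 and 2.10.

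Genes of antigen presentation were spread over the bands, and most cytokines and chemokines were at the floor. Of 21 antigen presentation genes 2 or 9.52% were high, 8 or 38.1% middle and 2 or 9.52% at the floor. The shares of all genes were 3.06%, 30.3% and 28.4%. B2M, the small subunit shared by class I proteins, stood at 11.33, CD74, the class II invariant chain, at 10.28 and BLB1, a class II beta chain, at 9.91, with the other members below these. Of 20 interferon-stimulated genes 4 or 20% were middle and 5 or 25% at the floor, with MX1 at 2.42. IFI6 read 6.31, 7.72 and 7.0. Of 26 cytokines and chemokines 15 or 57.7% were at the floor, against 28.4% of all genes. Among the 15 were IL1B at 2.44, IL6 at 2.50 and CCL20 at 2.27. Those in the middle band were TNFSF10, a death receptor ligand, at 9.18, CXCL12, a stromal chemokine, at 8.59, and IL8L2, an interleukin-8 of chicken, at 6.72.

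Markers of tissues other than CAM were mostly at the floor. The floor held 19 of 22 retina and lens genes, 15 of 17 germ cell genes, 17 of 23 genes of pancreas, gut, thyroid and pituitary, 21 of 30 striated muscle genes, 13 of 24 neuronal genes and 24 of 33 plasma protein genes, against 28.4% of all genes. ALB (albumin) stood at 2.79, CRYAA, a lens crystallin, at 2.81, MYOD1, the muscle regulator, at 2.78, INS (insulin) at 2.67 and OVAL (ovalbumin) at 2.14. Exceptions were bright. TF (transferrin, or ovotransferrin) stood at 9.85, APOA1, which is made widely in birds, at 9.72, F10 (clotting factor X) at 8.70, CST3 (cystatin C) at 12.48 and TNNC1 (slow and cardiac troponin C) at 8.93. AVD (avidin), the biotin-binding protein of egg white, read 9.71, 10.61 and 9.50, with control 2 the highest. SLC12A1, the salt carrier of the kidney loop, read 7.45, 7.39 and 8.46, and PODXL, shared by podocytes and endothelium, stood at 7.94.

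The remaining lists were mixed. Beside their counts, the shares of all genes were 3.06% high, 30.3% middle and 28.4% at the floor. Of 32 genes of protein folding 10 were high and 19 middle, with PPIA (cyclophilin A) at 12.30 and SERPINH1, the collagen chaperone, at 11.19. Of 27 actin and tubulin genes 8 were high and 19 middle, led by ACTG1 at 13.54 and TMSB4X, which binds free actin, at 13.49. Of 15 glycolysis genes 4 were high and 7 middle, and of 10 keratins of the epithelial list 4 were high. Of 26 carriers of lipids and retinoids 1 or 3.85% was high, 8 or 30.8% middle and 5 or 19.2% at the floor. The high and middle shares of these carriers were near those of all genes. FABP3 stood at 10.02, RBP5 at 9.34 and RBP4 at 2.19. Of 16 clotting and thrombocyte genes 4 or 25% were at the floor, near the 28.4% of all genes. Of 10 egg white genes 5 or 50% were at the floor, and of 12 kidney genes 7 or 58.3%, against 28.4% of all genes. Of 5 annotated globins, a list added after its values were seen, 3 were high, among them HBBR at 10.58. In the cornified skin list 2 of 21 members were measured, S100A6, a calcium-binding protein of many cells, at 13.37 and KRT9 at 3.03. Of 22 Z-linked genes chosen for the list 1 was high and 12 were middle, and the only member of the W-linked list measured was HINTW.

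Of the 398 high genes, 188 belonged to 1 or more of the 39 gene lists and 210 to none. Among the latter, named after their values were seen, were FTH1, the ferritin heavy chain, at 13.91, SEC61B, of the protein channel of the endoplasmic reticulum, at 13.39, TPT1, the translationally controlled tumour protein, at 13.13, ANXA2, a membrane-binding annexin, at 13.01, CFI (complement factor I) at 12.65 and IGFBP7, a vessel-associated binding protein, at 12.25. A feature that the bands did not use was gene length. The median span of a gene in the RefSeq annotation was 6583 bases in the high band, 16761 in the middle, 20044 in the low band and 15579 at the floor, over the 12854 genes found there. Without genes whose symbols begin RPL or RPS the high band's median was 8400 bases. The share of genes on chromosomes 1 to 5 and Z was between 48.0% and 50.6% in every band.

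The arrays differed by 2 or more log2 units, which is 4-fold, in 75 of 13009 genes, or 0.577%. Of these, 54 were in the low band, 20 in the middle and 1 in the high band. An array was called apart where its gap to the middle array was more than 2/3 of the range. Control 1 was apart on the high side in 28 of the 75 and on the low side in 3. Control 2 was high in 5 and low in 9, control 3 high in 8 and low in 3, and in 19 no array was apart. Without control 1 the count was 30, without control 2 it was 52 and without control 3 it was 56. A range of 1 or more, which is 2-fold, was found in 493 genes.

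**Figure D3:**
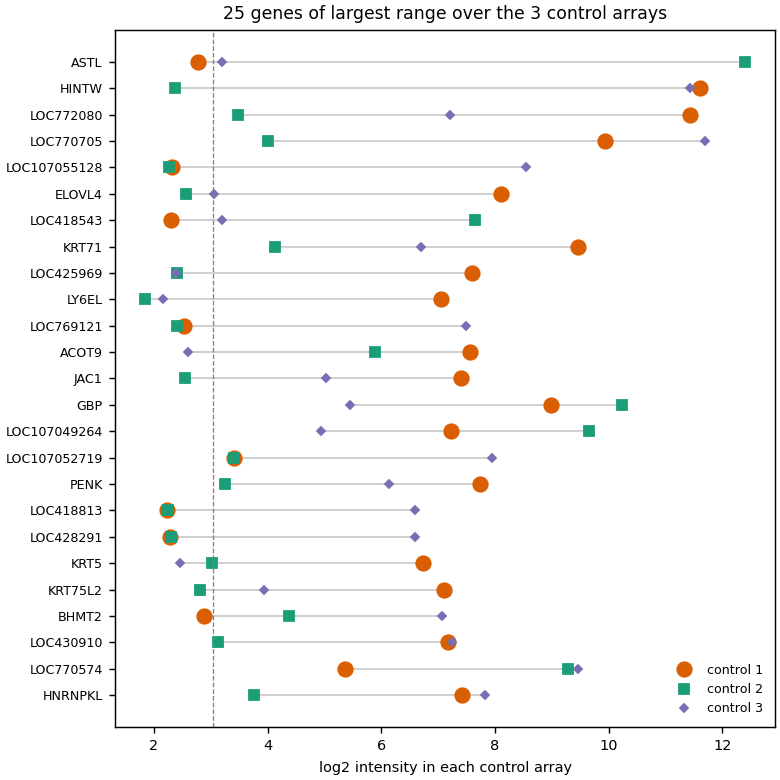
Log2 intensity in control 1 (circles), control 2 (squares) and control 3 (diamonds) of the 25 genes with the largest range among those reaching 6 on any array, with a dashed line at the floor limit of 3.05. ASTL and HINTW span more than 9 log2 units, and in most rows 1 array lies away from the other 2.

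Genes of the W chromosome set control 2 apart. In birds the female carries Z and W and the male a pair of Z chromosomes, and the bird has no complete compensation of Z gene dose. HINTW, a W-linked gene of the histidine triad family present in many copies, read 11.61, 2.37 and 11.43, and its second probe set 5.03, 1.67 and 4.49. HNRNPKL read 7.42, 3.77 and 7.82, SPIN1L 6.43, 3.64 and 6.65, UBE2R2L 5.38, 2.38 and 5.68, and LOC430910 7.18, 3.12 and 7.24. Of 17 genes that RefSeq places on W, control 2 lay 1 or more units below both other arrays in 8, and in 4 of these it was at the floor while the others were above it. In 8 of the 17 the arrays lay within 0.5 of each other, including MBD2 at 9.37, 9.71 and 9.53 and several genes near the floor. Probe sets of genes with a close copy on Z may read both copies, which was not tested.

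The Z chromosome moved the other way. Of 177 Z-linked genes with a mean of 6 or more, control 2 was the highest array in 143, or 80.8%, against 1520 of 4138, or 36.7%, on the other chromosomes apart from W. The difference between control 2 and the mean of controls 1 and 3 had a median of 0.47 on Z, a ratio of 1.39, and of 0.017 elsewhere. It was 0.5 or more in 85 of the 177 Z genes and in 159 of the 4138 others. The shift varied between genes, with 10th and 90th percentiles of -0.081 and 1.11. Of the Z-linked counterparts of W genes, HNRNPK read 8.65, 8.99 and 8.56, SPIN1 8.25, 9.30 and 8.83, and UBE2R2 8.27, 9.50 and 8.15. In a further pair, UBAP2 on Z read 5.27, 6.27 and 5.49, while UBAP2L2 on W read 3.36, 3.44 and 3.48 and was not lower on control 2. All 3 values of UBAP2L2 lay within the range of the genome record probe sets, whose highest was 4.09. A lower level on control 2 could therefore not be judged for this gene. The red cell list has members on Z. HEMGN, a nuclear protein of red cell precursors, read 7.51, 9.61 and 8.66, and FECH (ferrochelatase, the last step of heme synthesis) read 7.44, 8.63 and 6.78. The sex of the embryos was not given, and its part in these values was not tested.

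**Figure D4:**
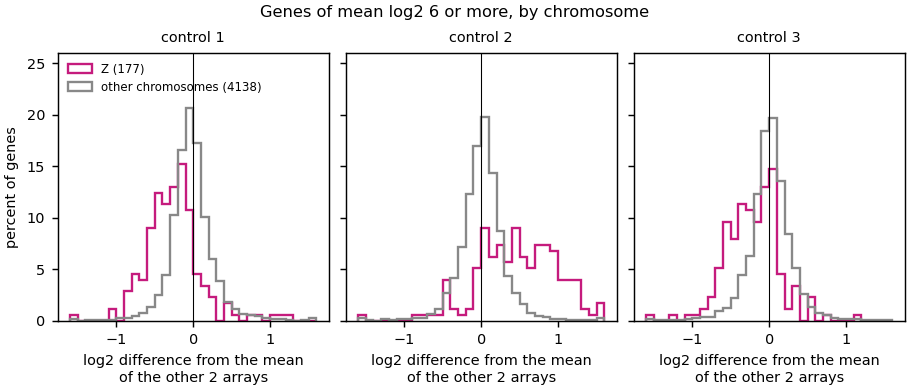
Percent of genes (vertical axis) by the log2 difference of each control array from the mean of the other 2 (horizontal axis, the outermost values drawn in the end bins), for 177 Z-linked genes and 4138 genes of other chromosomes with a mean of 6 or more. On control 2 the Z-linked curve lies to the right with a median of 0.47, while the curve of the other chromosomes is centred near 0 on each array.

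Control 1 was the highest array for many keratin and skin lipid genes. The lists counted here were put together after the values were seen and are given as a description. KRT71 read 9.46, 4.12 and 6.70, KRT6A 8.34, 5.30 and 5.43, KRT75L2 7.09, 2.81 and 3.93, and KRT5, the basal cell keratin, 6.73, 3.02 and 2.46. A second probe set of KRT5 read 6.87, 2.81 and 2.35. KRT71 and KRT75L2 were each read by 1 probe set. Probe sets of related keratins may read more than 1 of these genes, which was not tested. Of 15 annotated type I and II keratins 10 were highest on control 1, against 25.4% of all genes, and none on control 3. Among the high keratins KRT7, KRT24 and KRT14 had ranges under 1. In the epithelial keratin list 6 of 10 members had a range of 1 or more, against 493 of all 13009 genes.

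Several lipid genes of the skin barrier were also highest on control 1. ELOVL4, which makes the very long fatty acids of skin ceramides, read 8.11, 2.56 and 3.06. ACER1, an alkaline ceramidase of the epidermis, read 6.80, 2.94 and 3.58, ABCA12, a lipid carrier of lamellar bodies, 6.90, 3.30 and 3.71, and CERS3, a ceramide synthase, 6.96, 5.16 and 4.27. For each of these 4 genes control 1 lay above both others by more than 1.5 units. Of 35 ceramide and barrier lipid genes measured control 1 was highest in 20 or 57.1%, control 2 in 9 and control 3 in 6. Over all genes control 1 was highest in 25.4%. The choice of the list after the fact makes these counts a description only. Members of broad use, such as ASAH1, the lysosomal ceramidase, with a mean of 8.88 and SGMS1, a sphingomyelin synthase, with a mean of 7.77, had ranges under 1. Further genes high on control 1 were LOC425969, for which RefSeq gives the synonym EDWM of the epidermal differentiation cluster, at 7.59, 2.41 and 2.38, SPP1 (osteopontin) at 6.65, 4.13 and 3.79, and FABP4, a fatty acid carrier, at 5.85, 3.30 and 3.0.

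**Figure D5:**
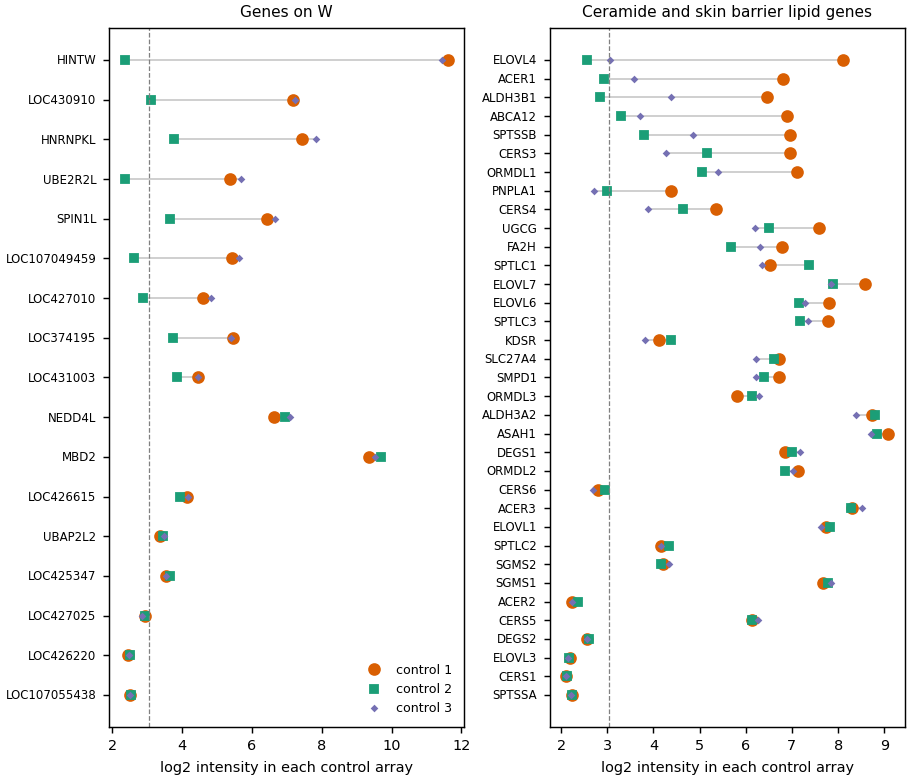
Log2 intensity in controls 1 (circles), 2 (squares) and 3 (diamonds) of the 17 genes on W (left) and of 35 ceramide and skin barrier lipid genes (right), each panel ordered by range, with a dashed line at 3.05. Control 2 is the low array in the upper W rows, and control 1 the high array in the upper barrier lipid rows.

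Control 3 alone was above the floor for 4 of the most variable genes, of which RefSeq gives feather or epidermal names to 2. LOC107055128, for which RefSeq gives the synonym EDMTF4, read 2.32, 2.26 and 8.55, and LOC769121, also on chromosome 25, read 2.53, 2.41 and 7.50. LOC418813, with the synonym FK1 for a feather keratin, read 2.23, 2.25 and 6.59, and LOC428291 on chromosome 27 read 2.28, 2.30 and 6.59. Controls 1 and 2 were at the floor for all 4. JAC1, another gene of chromosome 25 with the synonym EDMPN1, had a different order, at 7.39, 2.55 and 5.03. A second probe set of LOC107055128 stayed at the floor in all arrays, at 2.44, 2.57 and 2.58.

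Several of the most variable genes belonged to none of these groups. ASTL, an astacin-like protease known in mammals from the egg cell, read 2.78, 12.39 and 3.19, with control 2 alone high and a range of 9.61. LOC772080 on chromosome 27 read 11.43, 3.49 and 7.21, and its next probe set 10.80, 3.39 and 6.55. A dimmer probe set of LOC772080 read 4.77, 3.37 and 3.35, with control 3 about as low as control 2. The dimmest probe set of this gene stayed at the floor in all arrays, at 1.93, 1.95 and 1.95. LOC770705 on chromosome 9 read 9.94, 4.02 and 11.70, but its second probe set read 7.58, 2.56 and 2.27, so the probe sets placed control 3 differently. GBP, a guanylate-binding protein induced by interferon, read 8.98, 10.24 and 5.44, with 7.70, 8.75 and 3.83 on its other probe set. PENK (proenkephalin) read 7.74, 3.25 and 6.13, and ACOT9, a mitochondrial thioesterase, 7.57, 5.89 and 2.60. MHCY4, a class I-like gene of the MHC-Y region, read 5.28, 4.87 and 7.74.

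At the other end, the steadiest high genes differed by under 0.02 between arrays. They were RPS20, NDUFA11, RPL32, PPIB and PEBP1, with SDs of 0, 0.0023, 0.0062, 0.0067 and 0.0075. The arrays had been normalised to share a distribution of intensities, which can give equal values at a given rank.

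Probe sets of the same gene often differed. Of 7334 genes with several probe sets, the brightest and the dimmest differed by a median of 1.61, and by 2 or more in 3159 of them, or 43.1%. In 3581 genes the dimmest probe set was at the floor while the brightest was above it. Of the probe sets of mean 10 or more, 55 had no gene symbol and 7 had several, and these are not named.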

How the data were processed

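Each array was deposited as log2 intensities, 1 per probe set, which the authors obtained by RMA (robust multi-array averaging). The sources used here do not give the version of RMA. GCOS scaling, also listed in the methods, would have left a linear scale and was not what these values hold. RMA corrects background, gives all arrays 1 distribution and summarises the probes, and the 3 controls were normalised together with the 3 wound arrays. Giving arrays 1 distribution removes differences in overall intensity between them. Without read counts or depth, precision is limited by having 3 arrays, which came from separate eggs. The number of per-sample columns left unused was 0.

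The control columns were averaged without further normalisation. Gene symbols came from the platform annotation, which gives 1 symbol to 27168 probe sets, several to 177 and none to 11094. For chromosome, span and synonyms, 12854 of 13009 genes were found by gene ID in the RefSeq table of assembly GRCg7b. Genes named were drawn from the 25 brightest, the 25 of largest range that reach 6 on any array and the 5 steadiest high genes. In each list they were drawn from the brightest, most variable and floor members. Not every member of these sets is named, and other genes were chosen after their values were seen. The members and the 39 gene lists were chosen with earlier results of these data known, and 5 lists were added after seeing the values. The band and range steps were tested on simulated arrays with normal noise at the median SD of each band. In the low band that SD was 0.15, while the 90th percentile of the SDs was 0.42. The simulation therefore does not measure error rates in these data. Protein lengths and promoter motifs were not analysed here, and no test was run, since a single group was described. Python 3.11.15, pandas 2.3.3, numpy 2.4.6 and matplotlib 3.10.9 were used.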

Additional observations from a re-analysis of the deposited data

How the results depend on the processing

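The high band held 398 genes, 213 with plain probe sets only (those whose name ends in _at without a further letter), 795 with a limit of 9 and 196 with a limit of 11. The floor held 3692 genes, 5576 with the limit 1 log2 unit higher, 1453 with the 25th percentile as the limit, and 5639 with the highest genome record probe set as the limit, a choice made after seeing the data. Genes with a range of 2 or more numbered 75, and 493 had a range of 1 or more and 42 of 3 or more. Without 1 replicate this count lay between 30 and 56. Without genes of Z and W, added after seeing the data, it was 66. All other counts of genes by band or range stayed within 1.5 times their value, including under quantile normalization of the 3 arrays and centring on each array's median. Of the 25 brightest genes 22 were shared when the median probe set stood for a gene, but 7 with plain probe sets only. Of the 25 most variable genes 15 to 17 were shared when 1 replicate was left out. The share of Z-linked genes highest on control 2 was 75.7% over all Z genes and 82.8% at a mean of 8 or more, both added after seeing the data. On chromosomes other than Z and W the matching shares were 46.8% over all genes and 42.9% at a mean of 8 or more. Medians of gene lists moved most with plain probe sets, by up to 4.78, where the respiratory chain list fell from 9.43 to 4.65. Each move was set against the SD of the list's median over the 3 arrays. Of 39 list medians 11 stayed within it with plain probe sets and 16 with the median probe set. Under the other settings 34 to 39 did. The median of the reference genes fell from 10.77 to 8.03 with the median probe set. Most list levels therefore depended on the probe set taken for each gene. No paired analysis was made, since 1 group was described without a contrast to wound tissue. In the paper the control of each wound was taken from the same egg, but the labels do not say which arrays form a pair. With 3 arrays, a value that stands apart on 1 array has no repeat within the controls.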

Other observations

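The 8 W-linked genes that were 1 or more log2 units lower on control 2 than on controls 1 and 3 were also lower by that much on the wound array of replicate 2 than on those of replicates 1 and 3, in 8 of 8. HINTW read 12.15, 2.37 and 11.93 on wound arrays 1, 2 and 3, and UBE2R2L read 5.62, 2.38 and 5.86. No source used here says that equal numbers mark 1 egg.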
